A study of Mus musculus with 207 samples.

Results

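The mitochondrial ribosomal proteins were followed here as 76 genes, those whose symbol is Mrpl or Mrps and a number and which had a probe set of their own on the array, of 10212 genes that reached the signal minimum on their brightest probe set. The number of matching symbols in the mouse gene table was 78, and the remaining members, Mrpl30 and Mrpl53, had only probe sets shared with another gene and have no value here. Of the 76 members, 47 were named Mrpl and 29 Mrps, they lay on 17 chromosomes with 11 on chromosome 11 and 8 on chromosome 17, and all 76 reached the minimum, a 67th percentile of signal over all arrays of at least 100. A member stands for its brightest probe set by mean signal, and 42 of the 76 had several. The arrays came from macrophages grown from the bone marrow of 16 week old F2 mice, 93 of them female and the rest of 207 male, of an intercross of the strains AKR and DBA/2. Every mouse, of either sex, was apoE-deficient, so no group here had a functional apoE gene. The cells were grown for 2 weeks in medium conditioned by L cells, a fibroblast line that secretes macrophage colony-stimulating factor. One Affymetrix 430v2 array was made per mouse, whose values were MAS5 signals, not log transformed.

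The mitochondrion keeps a ribosome of its own, which translates the few messages of mitochondrial DNA, all of them for membrane subunits of the respiratory chain and the ATP synthase. Its RNA comes from mitochondrial DNA but its proteins are all encoded in the nucleus, made in the cytosol and imported, so that the small subunit, which reads the message, and the large subunit, which joins amino acids, depend on the joint supply of many gene products. Many of these proteins descend from bacterial ribosomal proteins, and others were gained in the line of mitochondria. Macrophages depend on respiration in their resting and alternatively activated states, and dividing cells must double their mitochondria.

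Female and male arrays were told apart by Xist, with 3030.0 to 8769.8 in females and 22.3 to 807.2 in males, and by Eif2s3y, and neither gene overlapped between the sexes. All 9 macrophage markers measured reached the signal minimum, but 0 of 5 mast cell and 0 of 3 erythroid markers did. Of markers of other cells, 3 of 5 for osteoclasts, 2 of 7 for neutrophils, and 1 each of 6 for T and NK cells, 4 for B cells, 4 for endothelial cells and 4 for dendritic cells did, and the highest of the osteoclast and the neutrophil markers, Mmp9 and S100a8, had medians of 12476.6 and 2571.7 in females and of 12273.2 and 1912.7 in males. All 5 stromal markers (Col1a1, Col1a2, Col3a1, Sparc and Dcn) reached it as well, with medians from 263.1 to 1213.6 in females and from 623.8 to 2605.4 in males. The median signal of an array lay between 51.1 and 112.4 in females and between 54.7 and 122.3 in males. Each array title holds a number after the letters smi, called the code number here, which began at 33 in females and at 9 in males and whose meaning the labels do not give. The titles of the males carry a further prefix that no female title has, so sex and this prefix cannot be told apart.

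The members had a lower median coefficient of variation over mice than all genes tested. Their median signals ran from 238.9 to 4813.2 in females and from 240.4 to 4635.6 in males, values of different probe sets that have no order among genes. Their coefficient of variation over mice had a median of 15.7% in females and 14.7% in males, where all genes tested had 21.8% and 22.9%. The members and all genes were not matched for signal level, whose part in this was not tested. The most variable member was Mrps28, a small subunit protein related to a bacterial one, with a coefficient of 44.3% in females and 40.1% in males. Mrps6, Mrpl35 and Mrpl45 were the next, with 35.5%, 33.3% and 32.2% in females and 38.3%, 31.4% and 32.6% in males.

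The first comparison asked how the members ran along the code number. Most of them fell. In females 54 of the 76 fell and 7 rose, where 35.4% of all genes tested fell and 30.7% rose, and in males 48 fell and 9 rose, where 34.1% of all genes fell and 33.5% rose (limma slopes, Benjamini-Hochberg adjusted p under 0.05 over all probe sets tested). As shares of the members these were 71.1% and 9.21% in females and 63.2% and 11.8% in males. In both sexes together 44 members fell, a share of 57.9% against 28.3% of all genes, and 5 rose, 6.58% against 25.5%. No member fell in one sex and rose in the other, and 7 passed in neither. The median slope of the members was -0.030 in females and -0.017 in males on the log2 scale per 10 code numbers, beside -0.0030 and -0.00063 for all genes. Because the arrays measure a culture as a whole, fewer cells of a kind and less RNA per cell cannot be told apart in any of these values.

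**Figure D1:**
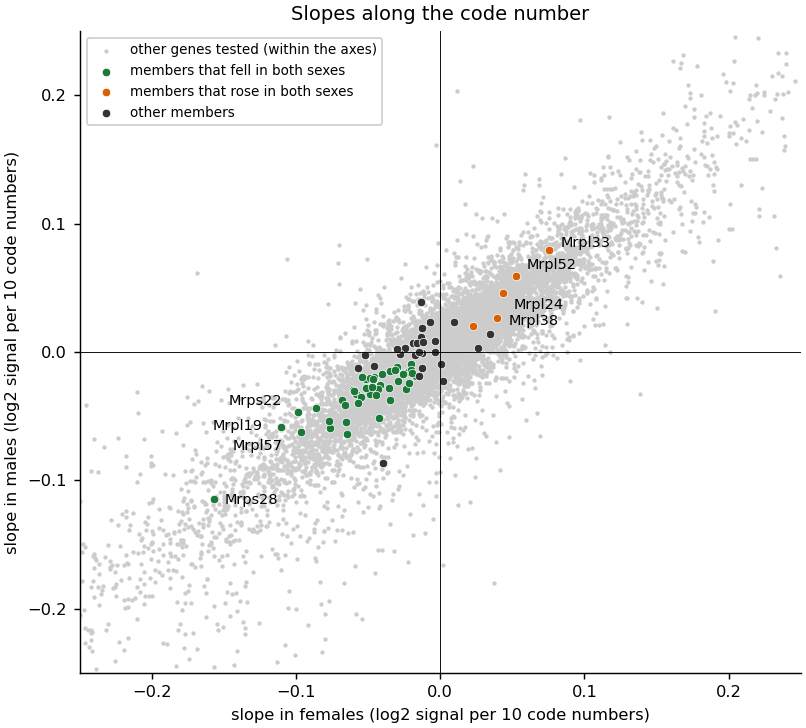
Slope of log2 signal per 10 code numbers in females (horizontal axis) and in males (vertical axis) for each of the 76 members (coloured or black points) and for the other genes tested (grey, those within the axes). The 44 members that fell in both sexes lie below and left of the origin with Mrps28 farthest out, and the 5 that rose in both sexes lie above and right of it.

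Members of both subunits fell. Of the 47 Mrpl genes 34 fell in females and 30 in males, and of the 29 Mrps genes 20 fell in females and 18 in males. By name these are not quite the subunits, since Mrps18a and Mrps30 belong to the large one, and both fell in both sexes. Of the 45 members with a bacterial counterpart 27 fell in both sexes and 2 rose, and of the 31 without one 17 fell and 3 rose. The median slopes of these 4 classes lay between -0.035 and -0.026 in females and between -0.019 and -0.016 in males.

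Mrps28 fell most. With the mice of each sex ordered by code number and divided into 5 groups, its median signal in females was 1500.0, 899, 699, 709 and 631 from the lowest numbers to the highest, and in males 1358, 1013, 579, 848 and 672. It fell by 0.16 ± 0.017 in females and by 0.11 ± 0.013 in males on the log2 scale per 10 code numbers (SE over the arrays of each sex), with adjusted p of 3.52e-14 in females and 1.10e-13 in males. Both sexes were highest at the lowest numbers, and the male course was not steady, with its lowest median in the middle group.

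Mrpl19 and Mrpl3, large subunit proteins with bacterial counterparts, fell as well. The 5 groups had Mrpl19 medians of 1439, 1138, 998, 895 and 832 in females and of 1168, 1259, 898, 1003 and 825 in males, and it fell by 0.11 ± 0.012 in females and by 0.058 ± 0.0074 in males (adjusted p = 2.60e-14 and 1.88e-11). Mrpl3 had 2372, 1878, 1785, 1668 and 1610 in females and 2516, 2194, 2125, 1855 and 1742 in males, and fell by 0.076 ± 0.0092 and by 0.059 ± 0.0060 (adjusted p = 6.38e-12 and 1.10e-15). The male median of Mrpl19 was highest in the second group, and every step of Mrpl3 from group to group was downward in both sexes.

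Mrpl57 and Mrpl54 belong to the large subunit and Mrps22 to the small one, and none of them has a bacterial counterpart. Mrpl57 fell by 0.097 ± 0.0089 in females and by 0.062 ± 0.0075 in males (adjusted p = 1.08e-16 and 2.24e-12), and its groups of lowest and highest numbers had medians of 3028 and 1866 in females and of 3236 and 2214 in males. The male median of Mrpl57 was lowest in the middle group, at 1926.

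Mrps22 had medians of 1152, 971, 890, 867 and 726 in the 5 groups of the females and of 1143, 940, 928, 1050.4 and 810 in those of the males. It fell by 0.099 ± 0.010 in females and by 0.047 ± 0.0083 in males (adjusted p = 1.05e-14 and 5.05e-07). Mrpl54 fell by 0.077 ± 0.013 in females and by 0.054 ± 0.0070 in males (adjusted p = 1.05e-07 and 4.44e-11), with medians of 649 and 468 at the lowest and highest numbers in females and of 684 and 496 in males.

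The 5 members that rose in both sexes were Mrpl33, Mrpl52, Mrpl24 and Mrpl38 of the large subunit and Mrps35 of the small one. Mrpl33, related to a small bacterial protein, had medians of 788, 714, 833, 981 and 967 from the lowest numbers to the highest in females, and of 663, 743, 948, 1100 and 1023 in males. Its slope was 0.076 ± 0.015 in females and 0.079 ± 0.0087 in males per 10 code numbers (adjusted p = 7.11e-06 and 2.69e-14). Mrpl24, also with a bacterial counterpart, had slopes of 0.044 ± 0.0088 and 0.046 ± 0.0068 (adjusted p = 8.96e-06 and 2.49e-09), and Mrpl52, which has none, had 0.052 ± 0.0086 and 0.059 ± 0.0095 (adjusted p = 9.64e-08 and 3.84e-08). Mrpl52 was highest in the fourth group in both sexes, with medians of 5328 in females and 6646 in males, where the groups of lowest numbers had 4156 and 4101.

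Mrpl38 and Mrps35, both without a bacterial counterpart, rose less. Mrpl38 had slopes of 0.040 ± 0.0094 and 0.027 ± 0.0064 (adjusted p = 1.48e-04 and 1.51e-04), and Mrps35 had 0.022 ± 0.0075 and 0.020 ± 0.0053 (adjusted p = 0.00647 and 4.03e-04). With all arrays brought to 1 median the falls stood at 68 and 47 members in females and males but the rises at 2 and 4, where 52.6% of all genes fell and 14.2% rose in females and 37.1% fell and 21.2% rose in males, and the female slope of Mrps35 was then -0.0050 and did not pass. On that scale the slopes of Mrpl38 in both sexes, of Mrps35 in males and of Mrpl24 in females did not pass either, and Mrps35 in females also did not pass without the run of arrays described with Mrpl52.

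The slopes differed between the sexes for 18 of the 76 members (23.7%, where 9.31% of all genes differed; limma interaction of sex and code number, adjusted over all probe sets tested), and in all 18 the female slope was the more negative. Mrps22 differed by -0.052 ± 0.013 per 10 code numbers (adjusted p = 0.00492) and Mrpl19 by -0.052 ± 0.013 (adjusted p = 0.00497), while for Mrps28 the difference of -0.043 ± 0.021 did not pass (adjusted p = 0.185). The code numbers of the sexes cover different ranges.

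Among arrays with neighbouring code numbers signals stayed alike. After the linear trend was removed, the correlation of a member between one array and the next had a median of 0.32 over neighbouring pairs in females and 0.42 in males, and all genes had 0.33 and 0.44. It was highest for Mrps6 in females, at 0.70, and for Mrpl52 in males, at 0.81. The limma p-values, and those of the Mann-Whitney tests between the sexes given below, treat the arrays as independent and do not cover this likeness.

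**Figure D2:**
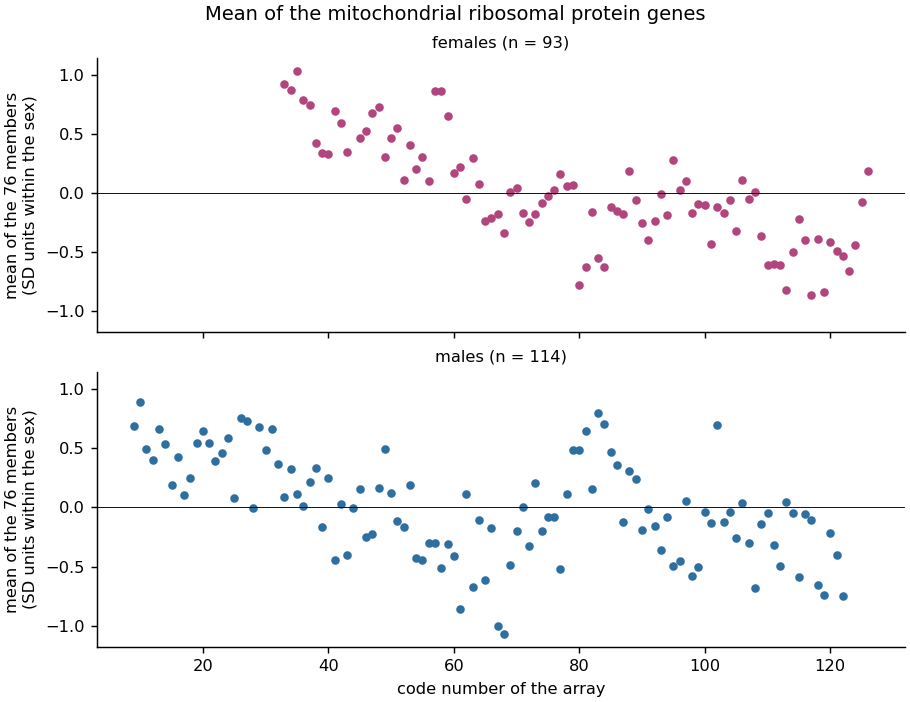
Mean of the 76 members on each array (each member's log2 signal scaled to mean 0 and SD 1 within its sex) against the code number, females above and males below, 1 point per array. With 5 groups by number, the median is 0.57 in the lowest and -0.49 in the highest group of females, and 0.51 in the lowest, -0.31 in the middle and -0.14 in the highest group of males.

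The mean over the members, with each member scaled within its sex, had medians of 0.57, 0.11, -0.16, -0.10 and -0.49 in the 5 groups of the females and of 0.51, 0.11, -0.31, 0.050 and -0.14 in those of the males. Its correlation with the code number was -0.77 (Spearman -0.77, n = 93) in females and -0.50 (Spearman -0.52) in males, given as a description. The males numbered 55 to 78, whose arrays have a high median signal, ran from -1.07 to 0.21 with a median of -0.31, and the other 90 males from -0.75 to 0.89 with a median of 0.063. Without these 24 males 49 members fell and 11 rose in males, where 36.2% of all genes fell and 35.5% rose.

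Genes of cell division moved along the code number with the members. All 11 measured (among them Top2a, the topoisomerase of chromosome segregation, with slopes of -0.39 and -0.31, and Ccnb2, a mitotic cyclin, with -0.42 and -0.40) fell in females and in males. The mean of the 11 correlated with the mean of the members at 0.82 in females and 0.55 in males, and at 0.53 and 0.28 with the code number removed (Spearman 0.80 and 0.54, and 0.50 and 0.36). Their part in the fall of the members was not tested.

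The other machinery of mitochondrial translation was read from lists of genes. Of 17 mitochondrial aminoacyl-tRNA synthetases and related enzymes, which load tRNAs with amino acids, 12 fell and 1 rose in females and 10 fell and 0 rose in males, with median slopes of -0.043 and -0.024. Wars2, the tryptophan enzyme, had slopes of -0.084 in females (adjusted p = 6.08e-05) and -0.062 in males (adjusted p = 1.36e-12). Of 12 translation factors 6 fell and 1 rose in females and 6 fell and 2 rose in males, and Tufm, the elongation factor that brings loaded tRNAs, had -0.052 and -0.043 (adjusted p = 2.25e-07 and 2.00e-10). Of 24 assembly factors 9 fell and 3 rose in females and 10 fell and 8 rose in males, with median slopes of -0.0076 and -0.0065. Noa1, a GTPase needed for the small subunit, had -0.078 in females and -0.056 in males.

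Genes that keep and transcribe mitochondrial DNA moved in both directions, with 5 falls and 4 rises among 14 in females and 3 falls and 7 rises in males. Tfam, which packages mitochondrial DNA and starts its transcription, had slopes of 0.026 in females (adjusted p = 0.00116) and 0.024 in males (adjusted p = 1.76e-07). Of 9 regulators of nuclear genes for mitochondria, 3 fell and 5 rose in females and 2 fell and 4 rose in males. Myc, a driver of ribosome production and growth, had the steepest slopes of these, -0.29 in females (adjusted p = 6.96e-11) and -0.23 in males (adjusted p = 1.01e-14), and Ppargc1b, a coactivator of mitochondrial genes, had 0.16 and 0.093 (adjusted p = 1.54e-23 and 6.65e-17).

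Cytosolic ribosomal proteins had more rises than falls. Of 45 cytosolic ribosomal protein genes, 4 fell and 27 rose in females and 5 fell and 17 rose in males, with median slopes of 0.023 and 0.0093. The respiratory chain was mixed, with 12 falls and 12 rises among 33 complex I subunits in females and 8 falls and 14 rises in males, and 9 falls and 16 rises among 42 subunits of complexes II to V in females and 6 and 13 in males. Of 4 mitoribosomal proteins with other symbols, 2 fell and 1 rose in females and 1 fell and 0 rose in males.

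Promoters were printed for members named for their slopes, so that windows of genes that fell and of genes that rose can be read side by side. RefSeq windows of 250 bases before to 50 after the gene start (GRCm38.p6) were held for 67 of the 76 members, 73 windows in all. They are given 5′ to 3′ on the gene's strand, with the letters of a searched motif in capitals. Mrpl57 (chr14:57825989-57826288, plus strand) and Mrps22 (chr9:98601630-98601929, minus strand) fell, and Mrpl33 (chr5:31613701-31614000, plus strand), Mrpl52 (chr14:54426659-54426958, plus strand) and Mrpl24 (chr3:87919294-87919593, plus strand) rose.
Mrpl57: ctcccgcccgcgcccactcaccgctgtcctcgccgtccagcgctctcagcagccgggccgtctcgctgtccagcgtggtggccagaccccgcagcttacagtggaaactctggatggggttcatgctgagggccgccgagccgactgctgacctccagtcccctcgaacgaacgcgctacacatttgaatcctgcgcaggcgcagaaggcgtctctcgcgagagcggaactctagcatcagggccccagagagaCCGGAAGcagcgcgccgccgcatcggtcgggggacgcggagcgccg
Mrps22: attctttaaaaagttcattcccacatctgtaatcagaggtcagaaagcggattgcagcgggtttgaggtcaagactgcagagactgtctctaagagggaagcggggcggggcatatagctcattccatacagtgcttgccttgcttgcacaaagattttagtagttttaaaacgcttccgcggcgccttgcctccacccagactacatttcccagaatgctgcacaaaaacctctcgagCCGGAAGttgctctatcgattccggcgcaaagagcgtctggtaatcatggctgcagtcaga
Mrpl33: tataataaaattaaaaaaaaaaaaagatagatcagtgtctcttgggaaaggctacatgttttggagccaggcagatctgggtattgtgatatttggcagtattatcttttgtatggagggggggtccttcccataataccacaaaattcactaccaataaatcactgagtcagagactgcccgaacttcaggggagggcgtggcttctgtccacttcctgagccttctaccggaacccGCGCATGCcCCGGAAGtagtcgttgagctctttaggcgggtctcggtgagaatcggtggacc
Mrpl52: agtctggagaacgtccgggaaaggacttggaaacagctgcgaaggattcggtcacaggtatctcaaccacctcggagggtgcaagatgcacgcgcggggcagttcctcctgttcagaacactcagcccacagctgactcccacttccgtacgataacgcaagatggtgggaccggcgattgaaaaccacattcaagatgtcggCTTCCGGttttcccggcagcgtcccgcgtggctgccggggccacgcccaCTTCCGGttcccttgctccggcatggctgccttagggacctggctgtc
Mrpl24: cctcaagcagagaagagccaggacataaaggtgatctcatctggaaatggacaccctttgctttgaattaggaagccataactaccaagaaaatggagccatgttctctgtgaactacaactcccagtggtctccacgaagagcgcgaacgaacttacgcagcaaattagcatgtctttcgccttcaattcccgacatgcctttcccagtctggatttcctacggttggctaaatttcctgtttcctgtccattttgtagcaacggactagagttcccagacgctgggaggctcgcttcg

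The motif CCGGAAG, as bound by GABPA and other ETS factors, stood on either strand in 25 of the 73 member windows (34.2%), in 18.3% of the windows of the other genes tested and in 8.86% of all 32851 windows. It is in capitals once in Mrpl57, Mrps22 and Mrpl33 and at both places in Mrpl52, where it is read on the opposite strand. GCGCATGC, as bound by NRF1, stood in 8 member windows (11%), in 5.39% of those of the other genes tested and in 2.71% of all, and is the other stretch in capitals in Mrpl33. AAGATGGC, as bound by YY1, stood in 12 member windows (16.4%), in 4.55% of those of the other genes tested and in 2.75% of all. CACGTG, the E-box, and TATAAA, the TATA box, stood in 7 and 5 member windows (9.59% and 6.85%), in 10.3% and 7.21% of those of the other genes tested and in 7.15% and 13.6% of all. No motif searched contains another. CCGGAAG was held by 17 of the 40 members with a window that fell in both sexes, by 2 of the 3 that rose, and by 6 of the other 24, so it stood in windows of either direction. The window of Mrpl24 held none of the 5 motifs, as did 28 member windows in all (38.4%) and 68.8% of all windows. A match describes the letters only.

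The members shared 1 main component. With each member scaled within its sex, the first principal component took up 31.8% of all variance in females, against 28.5% in males, where over all 10212 genes its share was 24% and 21%. Its loadings had 1 sign for 67 of 76 members in females and 65 in males. The median correlation between members was 0.21 in females and 0.20 in males, and between all genes 0.0013 and 0.0040. With the code number removed it was 0.098 in females and 0.15 in males, and the component held 19.4% and 24%, where over all genes the median correlation was then 0.00083 and 0.0045 and the component held 16.7% and 14.6%.

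**Figure D3:**
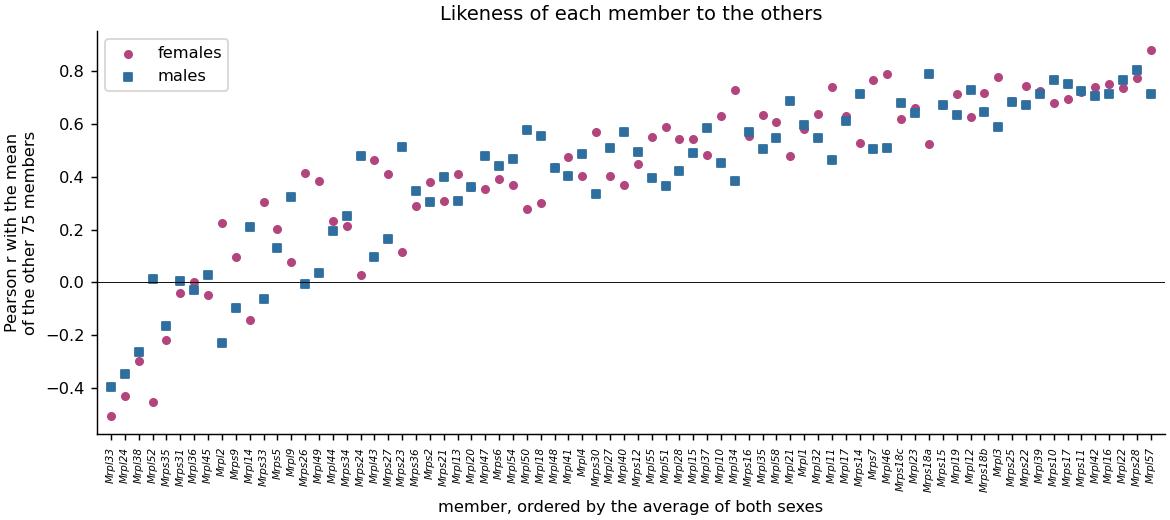
Pearson correlation of each member with the mean of the other 75 members over the females (circles) and the males (squares), members ordered by the average of both. Most points lie above 0, with Mrpl57 and Mrps28 at the right end, and Mrpl33 lies lowest in both sexes.

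Mrpl57, Mrps28, Mrpl22 and Mrpl16 were the members most like the rest. Mrpl57 correlated with the mean of the others at 0.88 in females and 0.71 in males, Mrps28 at 0.78 and 0.81, and Mrpl22, which lines the exit tunnel of the large subunit, at 0.74 and 0.77. For Mrpl16, near the tRNA binding sites, the values were 0.75 and 0.71. Mrpl33, Mrpl24, Mrpl38 and Mrpl52 were least like the rest by the average of both sexes, with -0.51, -0.43, -0.30 and -0.45 in females and -0.40, -0.35, -0.26 and 0.014 in males. These 4 are among the 5 that rose with the code number, but Mrpl52 in males was not among the lowest there. With the code number removed the values were -0.28 for Mrpl33, -0.17 for Mrpl24, 0.0014 for Mrpl38 and -0.096 for Mrpl52 in females, and -0.10, -0.11, -0.10 and 0.36 in males.

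Outside the family, the genes most like the mean of the members in females were Dnajc9, Ccl4, Rpa1, Cdca5, Cdk1, Mad2l1, Ncapg, Cdt1, Psmb7 and Mcm6, with correlations from 0.85 to 0.87 over 93 females. They include Cdk1, the kinase that starts mitosis, Mcm6, part of the replicative helicase, Ccl4, a chemokine, and Psmb7, a proteasome subunit. In the males the same genes had 0.45 (Ccl4) to 0.82 (Rpa1, part of the factor that coats single-stranded DNA). These correlations are between measures of the same arrays, with their scale and control ratios in common. Against complex I of the respiratory chain, whose core is built partly by this ribosome, the mean of the members correlated at 0.42 in females and 0.62 in males, and at 0.69 and 0.84 with the code number removed (Spearman 0.43 and 0.56, and 0.68 and 0.80). Against the cytosolic ribosomal proteins it was -0.12 and -0.25, and 0.15 and -0.21 with the code number removed. The mean of the members also correlated with the median signal of the array, at -0.42 and -0.52, and with the 3′ to 5′ ratio of the beta-actin control, at -0.31 and -0.54, and their part was not tested.

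The second comparison set females against males. Few members differed at the Bonferroni threshold used here, which is stricter than the Benjamini-Hochberg threshold of the slopes. Called higher in females were 5 of the 76 (6.58%, where 19.5% of all genes were) and called lower in females, that is higher in males, were 11 (14.5%, where 11% of all genes were), with 60 not called (Mann-Whitney test, 2-sided, Bonferroni threshold of 0.05 over 20036 probe sets). In limma with Benjamini-Hochberg adjustment, the rule used for the slopes, more members were called in each direction, as given with the alternatives below. The counts of the first and second comparisons are therefore not on the same footing. The median log2 difference of females minus males was -0.032 for the members and 0.021 for all genes. With all arrays brought to 1 median it was 0.095 and 0.16, so that relative to all genes the members lay at -0.053 as deposited and at -0.061 scaled. With this scaling 11 members were called higher in females and 1, Mrpl41, higher in males. The share of all genes called with this scaling is not given, so these counts cannot be set against it. The other 10 members called higher in males did not pass on that scale, and the 5 called higher in females did.

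Mrpl41, a large subunit protein of mitochondria also known for promoting cell death in human cells, had the lowest ratio. Its signal had a lowest value of 909.3, a median of 1276.3 and a highest of 2149.8 in females, and 1313.6, 1766.8 and 2931.8 in males. The ranges overlapped, but most males lay above most females. The ratio of the means was 0.736 (1340 ± 274 in females and 1821 ± 257 in males, SD over the arrays of each sex, adjusted p = 1.14e-18).

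Mrpl28, Mrpl49 and Mrpl50 of the large subunit and Mrps10 and Mrps17 of the small one were also lower in females. Mrpl28 had 822.5, 1311.9 and 1971.8 as its lowest, median and highest signals in females and 1193.4, 1738.6 and 2602.1 in males, a ratio of 0.766 (adjusted p = 4.47e-12). Mrpl49 had 432.9, 701.5 and 887.5 in females and 619.8, 852.9 and 1692.7 in males, a ratio of 0.80 (adjusted p = 1.2e-21). The median of Mrpl49 in males was near the top of the female range.

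Mrps17 had 1214.9, 1921.9 and 2646.7 as its lowest, median and highest signals in females and 1790.5, 2342.4 and 2766.3 in males, a ratio of 0.837 (adjusted p = 4.40e-13). Mrps10 had 673.8, 912.0 and 1571.9 in females and 690.2, 1182.0 and 1765.9 in males, a ratio of 0.826 (adjusted p = 2.55e-08), and its ranges lay over each other almost wholly. Mrpl50 had a ratio of 0.858 (adjusted p = 5.58e-07). The remaining 5 were Mrps23, Mrpl55, Mrpl11, Mrpl15 and Mrpl2, with ratios from 0.864 to 0.903. Mrps23 had 0.864 on its brightest probe set and 1.18 on another, called higher in females (adjusted p = 4.56e-06). The call of Mrpl2 was lost without the males numbered 55 to 78.

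Higher in females were Mrpl47, Mrpl9, Mrps24, Mrpl44 and Mrps21. Mrpl47, of the large subunit, had 662.7, 1085.2 and 1537.4 as its lowest, median and highest signals in females and 535.0, 846.7 and 1382.0 in males. The ratio was 1.27 (1099 ± 160 in females and 867 ± 169 in males, SD over the arrays of each sex, adjusted p = 6.89e-13), and the ranges overlapped over most of their length. Mrps24, at the entry of the message into the small subunit, and Mrpl44, which has the fold of an RNase, had ratios of 1.15 and 1.14 (adjusted p = 9.99e-09 and 3.37e-11). Mrpl44 had 1888.8, 2322.5 and 2849.7 as its lowest, median and highest signals in females and 1326.6, 2038.2 and 2873.0 in males, so the highest arrays of both sexes were alike. Mrps21 had a ratio of 1.12 (adjusted p = 5.88e-08). Mrpl9 had 1.17 (adjusted p = 9.37e-04), and without the males numbered 55 to 78 it did not pass (ratio 1.12, adjusted p = 0.831). On another probe set Mrpl9 had 0.738 and was called higher in males (adjusted p = 1.30e-19), and a further one, not called, had 0.942.

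Probe sets of 1 gene did not always give the same call. Of the 3 tested for each of Mrpl9 and Mrps23, 1 was called higher in females, 1 higher in males and 1 neither, so the direction of both genes depends on the probe set. Of the 2 for Mrpl49 both were called higher in males, of the 3 for Mrpl28 there were 2 and of the 2 each for Mrpl41 and Mrpl50 there was 1. The probe set of Mrpl41 that was not called had a ratio of 0.992, and that of Mrpl50 had 0.867. Of the 3 for Mrpl11, 1 was called higher in males, and the others had ratios of 1.014 and 0.884. Of the 5 for Mrpl15, 3 were called higher in males, and the others had 0.98 and 1.393. Of the 4 for Mrpl44, 2 were called higher in females and 2 not called. Of the 2 for Mrps24, 1 was called higher in females, and the other, not called, had a ratio of 0.975.

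**Figure D4:**
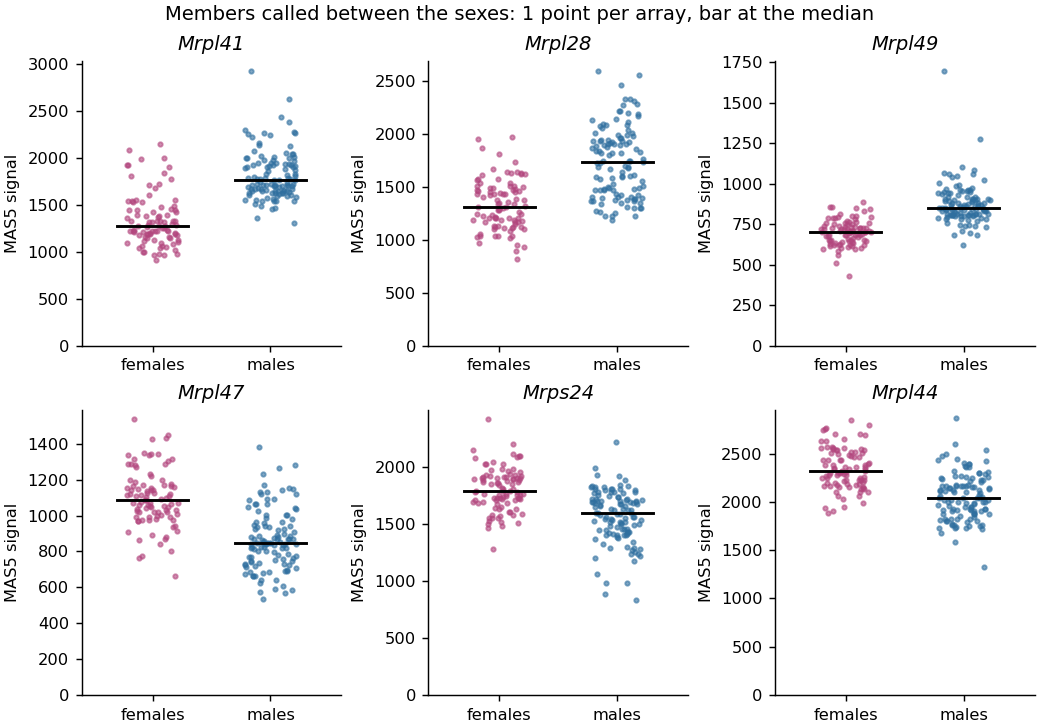
MAS5 signal of 6 members in females (left) and males (right), 1 point per array and a bar at the median. Mrpl41, Mrpl28 and Mrpl49 (top) have medians of 1276.3, 1311.9 and 701.5 in females and of 1766.8, 1738.6 and 852.9 in males, and Mrpl47, Mrps24 and Mrpl44 (bottom) are higher in females.

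The sexes were also compared in parts, with 3 sets of mice per sex formed along the code number and all pairs of a female and a male set tested. No member was called in the same direction in all 9 comparisons. The same sets recur in them, so the 9 are not independent, and the share of all genes for this count is not given. Mrpl49 was called lower in females in 8, Mrps17 in 7 and Mrpl41 and Mrpl28 in 6 of them, and Mrpl47 was called higher in females in 6. The female set of lowest numbers against the male set of highest numbers gave 23 members higher in females and 5 higher in males (20.1% and 13.7% of all genes), and the female set of highest numbers against the male set of lowest numbers gave 5 and 34 (23.6% and 20.5% of all genes).

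Other measures differed between the sexes beside these members. The 3′ to 5′ ratio of the Gapdh control ran from 0.803 to 1.12 in females and from 0.731 to 0.863 in males, and the summed signal of the 5 stromal markers had a lowest, median and highest value of 295.2, 3672.5 and 71232.6 in females and 349.3, 8044.6 and 31806.9 in males. In limma with the control ratios of Gapdh and beta-actin as covariates, 2 members (Mrpl9 and Mrpl19) were called higher in females and 4 (Mrpl41, Mrpl49, Mrpl52 and Mrpl55) higher in males. No share of all genes is given for these counts. Females minus males, the log2 difference there was -0.48 ± 0.055 for Mrpl41 (adjusted p = 1.32e-11), -0.25 ± 0.041 for Mrpl49 (adjusted p = 1.11e-04) and 0.41 ± 0.063 for Mrpl9 (adjusted p = 1.21e-05). The other members called without covariates did not pass there, and Mrpl19 and Mrpl52 had not been called without the covariates. A lost call is not always a smaller difference, since the Gapdh ratio differed between the sexes and SEs were wider with the covariates. Mrps24 had 0.213 ± 0.028 in limma without the covariates and 0.217 ± 0.048 with them, while Mrpl28 went from -0.38 ± 0.037 to -0.11 ± 0.057. The part of the control ratios and of the stromal markers was not tested.

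Of other lists, 2 of 12 translation factors were higher in females and 2 higher in males, with Mtres1 at a ratio of 1.2 and Gfm2, an elongation factor that recycles the ribosome, at 0.787. Complex I had 3 of 33 in either direction, and complexes II to V had 7 of 42 higher in females and 13 higher in males, led by Sdhd at 0.753. Of the regulators, Yy1 had a ratio of 1.28 (adjusted p = 1.10e-23), Gabpb1, a partner of Gabpa, 1.23 and Nrf1 0.860 (adjusted p = 1.53e-04).

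A split distribution, meaning that the signals of 1 sex were fitted better by 2 or 3 separate levels than by 1, was found in 0 of the 76 members in females and in 1 in males, where 4.66% and 7.47% of all genes were split. The member was Mrpl52, a large subunit protein without a bacterial counterpart. Its male signals lay at a lower level of 4268, with 78.7% of the mice, and at an upper level of 7287, with 21.3%, and the levels were 3.53 SD apart. Of its other probe sets that reached the minimum, both followed it, with correlations of 0.93 and 0.92 over the males, and their medians were 2830 and 2991 in males of the lower level and 4638 and 4635 in males of the upper. Neither of these probe sets was split by itself.

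High signals of Mrpl52 formed runs of neighbouring code numbers, which were picked after the values were seen and are given with no test. In 7 females numbered from 99 on without a gap, called the female run, its signal was 6484 at the lowest, 6975 in the median and 10344 at the highest, against 5762 at the highest in the 65 females below and 6280 in the 21 above. In males 69 to 84 it was 5625, 7452 and 9319, against 5038 at the highest in the 60 males below. Males 93, 94, 95 and 96 had 8197.5, 8046.7, 6646.4 and 6900.0, with 4355.9 to 6012.2 in the 8 between the runs. Among the 26 males above 96 the highest was 7788.9. In females the run and the rest did not overlap, which follows from picking the run by these signals.

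**Figure D5:**
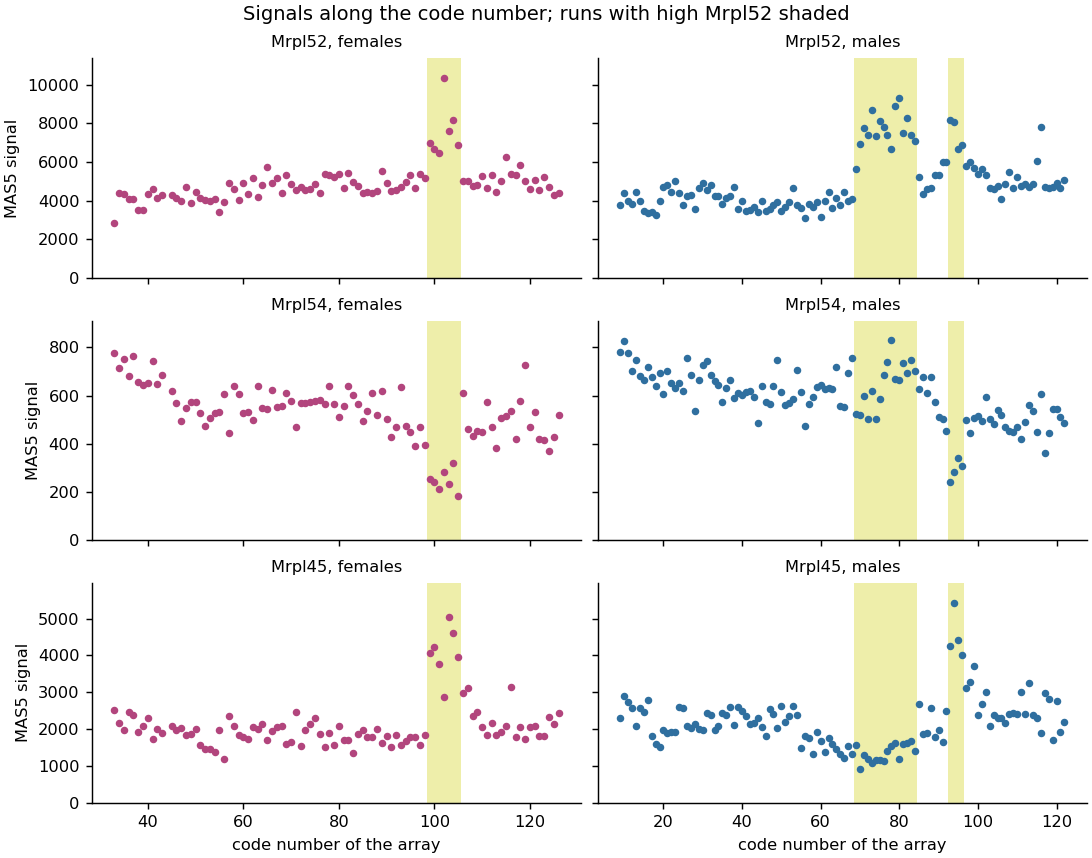
MAS5 signal of Mrpl52, Mrpl54 and Mrpl45 against the code number in females (left) and males (right), 1 point per array, with the run of 7 females from 99 and males 69 to 84 and 93 to 96 shaded. Mrpl52 is high in all shaded runs, and Mrpl54 is low and Mrpl45 high in the female run and males 93 to 96 but not in males 69 to 84.

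Other members moved in the same runs, in different directions. Mrpl54 had a lowest, median and highest signal of 185.5, 241.1 and 319.6 in the female run, against no less than 370.1 in the other females. Males 93, 94, 95 and 96 had 242.8, 282.8, 339.9 and 307.8, against no less than 362.7 in the other males. In males 69 to 84 it lay between 503.2 and 828.1, overlapping the other males.

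Mrpl45, which anchors the ribosome to the inner membrane, had 4267.6, 5427.0, 4406.8 and 4009.5 in males 93, 94, 95 and 96, against 3706.1 at the highest in any other male. In the female run its median was 4075, against 1922 in the other females, with overlap. In males 69 to 84 it was low, with a median of 1339 against 2304 in the other males. Mrpl24 had 5730 to 7247 in the female run and 5593 to 7719 in males 93 to 96, above the rest of each sex, and in males 69 to 84 it had 2470 to 4359.

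Signals that did not overlap between a run and the rest of the sex were found for 6 of 76 members in the female run (7.89%, where 7.02% of all genes did not overlap), for 5 in males 93 to 96 (6.58%, where 4.34% did not) and for none in males 69 to 84 (0.0196% of all genes). The shares of the members were near those of all genes. The 6 of the female run include Mrpl52, by whose signals the run was picked, so its own separation was set in advance. The 3′ to 5′ ratio of beta-actin was 1.36 to 1.54 in the female run and 1.06 to 1.42 in the other females, and 1.32 to 1.54 in males 93 to 96, 1.11 to 1.25 in males 69 to 84 and 1.14 to 1.35 in the remaining males, and its part was not tested. Without these runs 54 members fell and 5 rose along the code number in females, where 34% of all genes fell and 29.8% rose. In males 49 members fell and 8 rose, where 34.3% of all genes fell and 34.4% rose. Between the sexes 5 were then higher in females and 10 higher in males, with the calls of Mrpl9 and Mrpl2 lost and Mrps25 called higher in females. No share of all genes is given for these 2 counts. Another probe set of Mrps25 had a ratio of 0.774 over all arrays and was called higher in males (Mann-Whitney test, adjusted p = 6.49e-10), so its direction depends on the probe set.

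Single arrays far from the rest were rare. A signal more than 5 scaled median absolute deviations from the median of its sex was found on 7 female arrays, all of the female run, and on 4 male arrays, numbered 65, 66, 93 and 94. In that run 1 pair of neighbouring arrays had 4 such members each, Mrpl20 and Mrps2 low and Mrpl24 and Mrpl45 high, where 1.87% and 2.18% of all genes were as far off on these arrays. Male 93 had 3, Mrpl20, Mrpl54 and Mrps2, all low, where 2.54% of all genes were. The other arrays of the female run had 1 or 2 such members each, where 1.29% to 2.30% of all genes were as far off. Males 65, 66 and 94 had 1, 2 and 1, where 0.206%, 2.35% and 1.21% of all genes were. Mrps2, of the small subunit, had 700.1 to 863.7 in the female run, against no less than 1069.8 in the other females.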

How the data were processed

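The deposited values are signal intensities, made by the authors from 207 Affymetrix 430v2 arrays with MAS5, and they were used as deposited, each array with a trimmed mean of 500.0. The version of MAS5 was not given in the sources used here. A genotype table was not used, since its mouse codes name no array. Arrays were grouped by the sex in their labels, and each array is 1 mouse. Of 45037 probe sets beside 64 controls, 34958 had 1 gene symbol, and 20036 had a 67th percentile of at least 100 and were tested.

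Females and males were set against each other by the Mann-Whitney test (2-sided, large-sample form corrected for ties and continuity) at a Bonferroni threshold of 0.05, with ratios of mean signals. Slopes and their interaction with sex were fitted in limma on log2(signal + 1), with Benjamini-Hochberg adjustment at 0.05. A distribution was called split where 2 or 3 normal levels with a common SD lowered the Bayesian information criterion by over 10, lay at least 2 SD apart and held at least 10% of the mice each. Components and correlations are descriptions with no test. The members, gene lists and motifs were chosen with earlier results of these data known. Members named are those past the threshold with the largest ratios or slopes (up to 6 in each direction), those with the 4 highest and 4 lowest correlations with the others, in other lists up to 3 genes by smallest p or largest slope, and outside the family the 10 genes most like the members in females. Members named beyond this rule (those of high variability, the 5 remaining lower in females, Mrpl52 as split in males only, and Mrps2, Mrpl20, Mrpl45, Mrps25 and those gained or lost under an alternative) were picked with their values in view. The number of arrays limits the precision. The steps were tested on simulated data. The alternatives were other probe set choices, scalings, tests, pseudocounts and array sets. For the slopes, the probe set choice changed only the set adjusted over, and each member kept its brightest probe set. The slopes used limma 3.58.1 in R 4.3.3, and all else Python 3.11.15 with scipy 1.17.1, numpy 2.4.6, matplotlib 3.10.9 and pandas 2.3.3.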

Additional observations from a re-analysis of the deposited data

Results flagged for a closer look

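For 6 of the 24 named members the slope along the code number differed between females and males by the test of the difference itself (limma interaction, adjusted over all probe sets tested). The difference, females minus males in log2 signal per 10 code numbers, was -0.0522 for Mrps22 (adjusted p = 0.00492), -0.0521 for Mrpl19 (adjusted p = 0.00497), -0.0349 for Mrps17 (adjusted p = 2.75e-04) and -0.0345 for Mrpl57 (adjusted p = 0.0446). It was -0.0266 for Mrpl49 (adjusted p = 0.0195) and -0.0258 for Mrpl16 (adjusted p = 0.0242). All 6 fell with the code number in females, and Mrpl49 had a slope of -0.0013 in males that did not pass (adjusted p = 0.841).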

How the results depend on the processing

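The counts of members along the code number kept within 1.5 times under every alternative but 1. Slopes on other probe sets of a member were not read, so these alternatives do not cover that choice. With all arrays brought to 1 median the rises were 2 in females and 4 in males, and the female slope of Mrps35 was then -0.00502 without passing. Between the sexes, scaling gave 11 members higher in females and 1 higher in males, limma with Benjamini-Hochberg adjustment 16 and 29, limma with the control ratios 2 and 4, genes with every probe set called alike 2 and 5, and agreement over all 9 comparisons of groups by code number 0 and 0. In those comparisons 0 to 23 members were called higher in females and 1 to 34 higher in males. Of all genes 7.01% to 23.6% and 3.82% to 20.5% were. Among genes with every probe set called alike, all but Mrpl49 had a single tested probe set, so their agreement was set in advance. No share of all genes is given for the other alternatives between the sexes or for those of the split. The share of the first component was 57.5% in females and 71.7% in males scaled, 19.4% and 24% with the code number removed, 32.2% and 28.3% on linear signals and 26.2% and 22.9% over all probe sets of the members. Without the 7 females of the run from 99 on it was 33.7%, without males 55 to 78 32.6% and without males 69 to 84 and 93 to 96 32.8%. Leaving out the runs was chosen after seeing the data. Split members were 2 in females and 30 in males scaled (Mrpl52 not among them), 5 in females on linear signals, and 3 in males without males 55 to 78 (Mrpl11, Mrpl28 and Mrpl42, no longer Mrpl52). Without males 69 to 84 and 93 to 96 there was 1, Mrps16 and not Mrpl52. Named members whose slopes differed between the sexes were 6 as deposited and 4 scaled. The cause of these changes was not tested. No paired analysis was possible because the females and males are separate mice and share no replicate label. The lowest signal of any member on any array was 117.7 in females and 96.2 in males. The p-values of the slopes and those between the sexes do not cover the likeness of neighbouring arrays.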
